A study of Mus musculus with 6 samples.

Results

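The gp130-STAT3 route and the suppressors that act back on it, the SOCS proteins, were followed here in MC-38GFP tumor cells with normal or reduced HIF-1α transcript. The genes were taken from the expression table by name, and all 10 named genes (Il6st, Osmr, Lifr, Jak1, Stat3, Socs1, Socs2, Socs3, Socs5 and Cish) were found among its 22880 genes. The study asked how HIF-1α in tumor cells bears on the growth of colon tumors. MC-38GFP cells, a line of mouse colon adenocarcinoma labelled with green fluorescent protein (GFP), were injected into the cecum wall of C57BL/6J mice. Living cells positive for GFP and negative for CD45 and CD31, which mark leukocytes and endothelial cells, were sorted from the tumors, and their RNA was sequenced. There were 3 Mock libraries and 3 HIF-1α-KD libraries. All 6 came from cells transduced with the puromycin vector pLKO.1-puro and not passaged in vivo before the injection that gave the tumors. The groups differed in the knockdown, which was mock in the controls and directed against HIF-1 alpha in the KD cells. The age of the mice, whether the cells were a single clone, and whether each library came from a separate tumor are not given in the sources used here, so p-values measure the spread between these libraries, which may be technical.

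Cytokines of the interleukin-6 family bind receptors that share the signal-transducing chain gp130. Receptor-bound JAK kinases then phosphorylate the transcription factor STAT3, which enters the nucleus and binds a palindromic site upstream of its target genes. Among these targets is Socs3, whose product binds gp130 and JAK and shuts the signal off, while the other SOCS proteins and CIS restrain related cytokine and growth factor receptors. In colon cancer the route is known for carrying inflammatory signals to the tumor epithelium.

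Reads on genes ranged from 19845852 to 30809139 per library, and the 10 most abundant genes took between 6.21% and 8.23% of them. The targeted gene Hif1a (chromosome 12, 73901375 to 73947530 of GRCm38) stood at 6914, 5424 and 4945 normalized counts in Mock replicates 1 to 3, against 697.3, 3142 and 1928 in HIF-1α-KD replicates 1 to 3, so each KD library was below each Mock library and HIF-1α-KD replicate 2 kept the most transcript. Its log2 fold change was -1.82 ± 0.46 (SE, n = 3 per group, limma adjusted p = 0.219). A normalized count is the number of reads of a gene divided by a factor for the library, and a log2 fold change is the difference of HIF-1α-KD minus Mock in log2 of the normalized count plus 1, which understates changes of low genes. In bulk RNA, fewer cells of a type and less RNA per cell cannot be told apart. Summed leukocyte markers were between 4162 and 4200 normalized counts in Mock libraries, against 2647, 2907 and 12904 in HIF-1α-KD replicates 1 to 3. Endothelial markers summed to between 511 and 632 in Mock and between 328 and 484 in HIF-1α-KD libraries, a gap that came from Cdh5, since the other 6 summed to between 54.5 and 88.6 in Mock and between 62.7 and 131 in HIF-1α-KD libraries. Fibroblast and pericyte markers summed to between 41247 and 97208 in Mock and between 114024 and 224133 in HIF-1α-KD libraries, and without Col1a1 the sum of the other 7 was 31398 to 50138 in Mock and 23374 to 37933 in HIF-1α-KD libraries. Of these 8 markers, Col1a1 (log2 fold change 1.99), Rgs5 (1.15) and Pdgfrb (0.59) were higher at an unadjusted p below 0.05 and 1.5-fold (background 4.02%). The groups did not overlap in Col1a1 and Rgs5, and 10.4% of all genes tested were higher without overlap. Rgs5 rested on 13 to 83 reads per library. Dcn (-0.38) and Lum (-0.16) had negative changes, and Pdgfra (0.03), Acta2 (0.33) and Des (0.39) had positive ones. Of 8 epithelial markers, 6 were below 100 normalized counts in every library, Epcam was between 2.31 and 37.5, and their sum was highest in Mock replicate 3 (591, against 66.0 to 134 in the other libraries). The part of these markers in the differences below was not tested.

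In HIF-1α-KD cells the suppressor Socs3 was lower and the suppressor Socs5 was higher than in Mock cells, and the receptor chain Il6st was higher, each without overlap of the groups. Socs3 was 1.88-fold lower and Socs5 1.59-fold higher. Stat3 and Lifr had positive changes with overlapping groups, and Jak1, Osmr, Socs1, Socs2 and Cish had intervals that included 0. All 10 genes passed the filter on low counts. None of them passed an adjusted p of 0.05 in limma, where the adjusted p ranged from 0.253 to 0.978, against 0.391% of the 12014 genes tested that did (0.00832% higher and 0.383% lower). The count of genes past 0.05 was 0 with the edgeR quasi-likelihood test, which called 0.391% of all genes tested, and 1 with DESeq2, which was Socs3 and where 2.36% of all genes tested were called. At an unadjusted p below 0.05 there were 5 genes, 4 higher and 1 lower, where 7.04% of all genes tested were higher and 5.69% were lower. That count of 5 was 2 without HIF-1α-KD replicate 2 and 3 without Mock replicate 1, Mock replicate 3 or HIF-1α-KD replicate 3 and in limma without trend. With a fold change of at least 1.5 as a second condition, Socs5 and Lifr were higher (background 4.02%) and Socs3 was lower (background 3.46%). The groups did not overlap in 3 of the 10 genes, and in 19.2% of all genes tested (10.4% higher and 8.75% lower). The median log2 fold change of the 10 genes was 0.40, with 8 above 0, and that of all genes tested was 0.02. Without HIF-1α-KD replicate 2 the median of the 10 genes was 0.21.

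**Figure D1:**
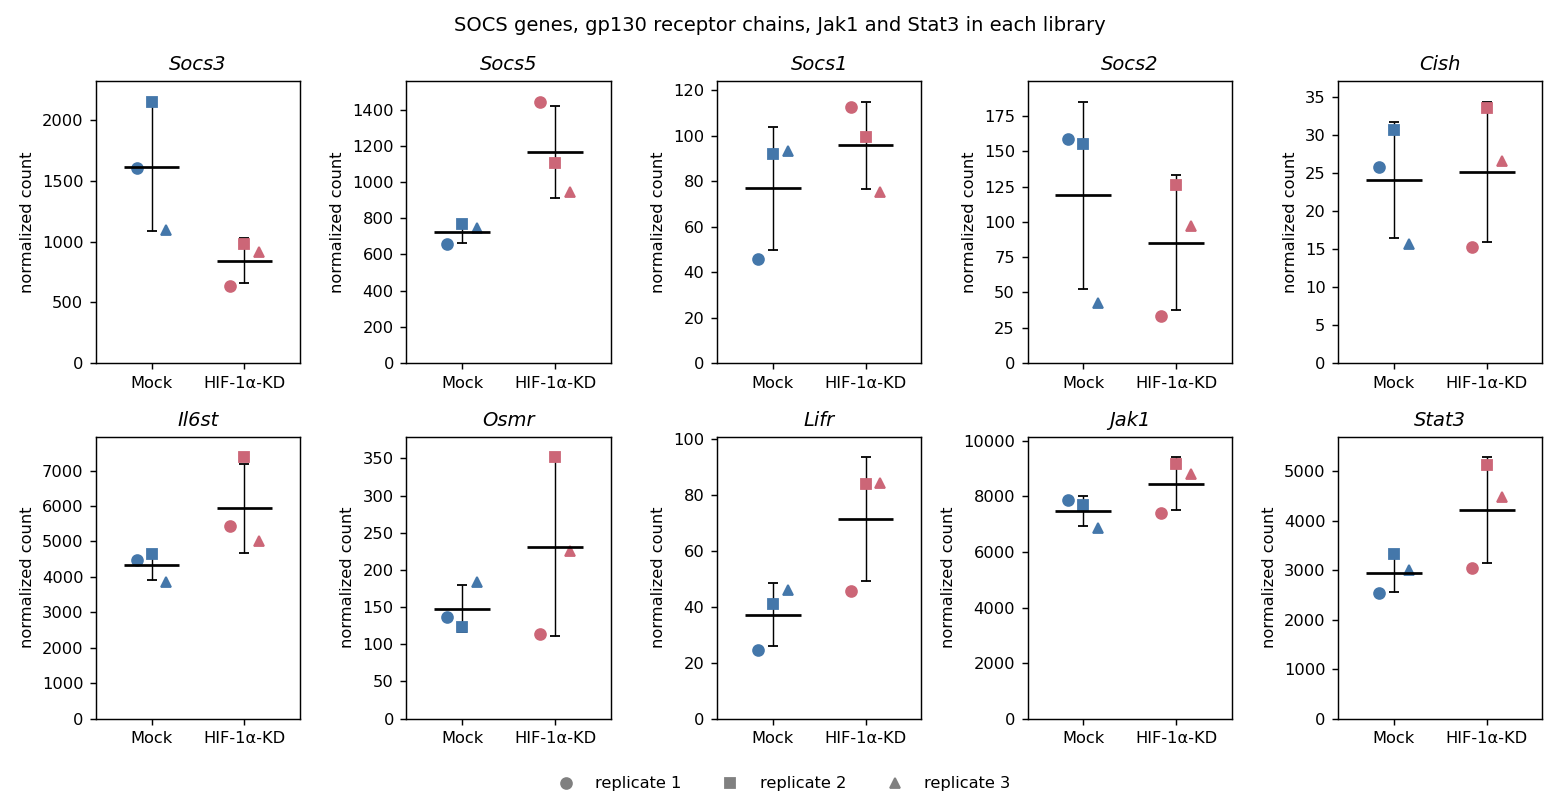
Normalized counts (linear axes from 0) of the 10 genes in the 3 Mock (blue) and 3 HIF-1α-KD (red) libraries, where symbols mark the replicate number, the black line the mean and the bar the SD. Socs3 points of HIF-1α-KD cells lie below all Mock points, those of Socs5 and Il6st lie above, and the other panels show overlapping groups.

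The promoters of Socs3 and Cish are shown first because they are the ones among these genes that hold the STAT palindrome TTCNNNGAA, where N is any base. Windows from 250 bases before to 50 bases after the RefSeq start were matched by symbol for 8 of the 10 genes (GRCm38.p6), in 9 windows of 300 bases, since Lifr has more than 1 start. Socs2 and Socs5 were not matched. Each sequence reads 5′ to 3′ on the strand of its gene, Socs3 from the minus strand at chr11:117969317-117969616 and Cish from the plus strand at chr9:107296409-107296708, and capitals mark the palindrome. Both windows lie inside the gene bounds of GENCODE given below, which reach further upstream.
Socs3: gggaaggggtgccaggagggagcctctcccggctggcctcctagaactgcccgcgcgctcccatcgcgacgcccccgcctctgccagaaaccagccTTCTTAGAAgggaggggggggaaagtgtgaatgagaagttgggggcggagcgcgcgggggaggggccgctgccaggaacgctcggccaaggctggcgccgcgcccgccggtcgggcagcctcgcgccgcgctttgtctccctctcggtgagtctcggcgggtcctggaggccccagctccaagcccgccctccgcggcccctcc
Cish: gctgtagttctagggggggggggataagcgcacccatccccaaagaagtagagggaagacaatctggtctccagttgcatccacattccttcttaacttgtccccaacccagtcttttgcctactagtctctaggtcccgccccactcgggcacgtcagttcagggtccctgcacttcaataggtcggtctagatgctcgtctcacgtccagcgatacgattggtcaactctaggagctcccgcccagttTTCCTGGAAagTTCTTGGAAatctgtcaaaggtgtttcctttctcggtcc
The Socs3 window held 1 palindrome, TTCTTAGAA, from base -154 to base -146, counting the first transcribed base as 1. The Cish window held 2 palindromes, TTCCTGGAA at bases 1 to 9 and TTCTTGGAA at bases 12 to 20, which do not overlap. These letters, which read the same on both strands apart from the free bases, occurred in 8.30% of 32851 RefSeq promoter windows of the same length, and 0.457% held 2 or more matches. The core letters of the hypoxia response element, ACGTG or GCGTG on either strand, occurred in 43.8% of all windows and in those of 5 genes, Jak1, Cish, Stat3, Osmr and Lifr. They were not in the windows of Socs3, Socs1 and Il6st. A match describes the letters of the window and was not tested as a binding site.

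Receptor chains were considered first. Il6st (chromosome 13, 112464070 to 112510086, plus strand) encodes gp130, the chain that the family shares. In Mock libraries it stood at 4486, 4638 and 3855 normalized counts, against 5437, 7369 and 5004 in HIF-1α-KD libraries. Every HIF-1α-KD library was above every Mock library, and replicate 2 of the HIF-1α-KD group was the highest. The mean was 4326 ± 415 in Mock and 5937 ± 1259 in HIF-1α-KD cells (SD, n = 3), a log2 fold change of 0.44 ± 0.17 (SE, 95% interval 0.04 to 0.84, limma adjusted p = 0.367). It was 0.27 without HIF-1α-KD replicate 2 and 0.36 without Mock replicate 3, and in both cases, and in limma without trend, the unadjusted p missed 0.05.

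Osmr (chromosome 15, 6813577 to 6874969, minus strand) encodes the chain that pairs with gp130 to bind oncostatin M. In Mock libraries it stood at 136.6, 123.5 and 183.6 normalized counts, against 114.2, 351.3 and 225.2 in HIF-1α-KD libraries. The KD libraries held both the lowest and the highest value, so the groups overlapped. The log2 fold change was 0.51 ± 0.39 (SE, 95% interval -0.38 to 1.40, limma adjusted p = 0.623), and it was 0.94 without HIF-1α-KD replicate 1 and 0.14 without HIF-1α-KD replicate 2. Lifr (chromosome 15, 7090614 to 7197489, plus strand) encodes the chain that pairs with gp130 to bind leukemia inhibitory factor. In Mock libraries it stood at 24.62, 41.15 and 45.9 normalized counts, against 45.85, 83.93 and 84.32 in HIF-1α-KD libraries, which overlapped only through the highest Mock and the lowest KD value. These rested on 20 to 73 reads per library. The log2 fold change was 0.91 ± 0.39 (SE, 95% interval 0.02 to 1.81, limma adjusted p = 0.386). The unadjusted p of Lifr missed 0.05 with edgeR, with DESeq2, with no filter on low counts and without Mock replicate 1 or 2 or HIF-1α-KD replicate 2 or 3. The log2 ratio of Osmr to Lifr within a library was 1.99 ± 0.43 in Mock and 1.59 ± 0.41 in HIF-1α-KD cells (SD, n = 3), a difference of -0.40 with overlapping groups (exact permutation test, two-sided, p = 0.3), and it was -0.18 without Mock replicate 1 and -0.64 without HIF-1α-KD replicate 2. With 3 libraries per group, the smallest p possible is 0.1.

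The kinase gene Jak1 (chromosome 4, 101152367 to 101265282, minus strand), whose product is bound to gp130 and phosphorylates STAT3, stood at 7876, 7711 and 6862 normalized counts in Mock, against 7396, 9186 and 8805 in HIF-1α-KD libraries. HIF-1α-KD replicate 1 lay within the range of the Mock libraries and the other KD libraries lay above it. The log2 fold change was 0.17 ± 0.14 (SE, 95% interval -0.15 to 0.50, limma adjusted p = 0.646), the narrowest interval among the 10 genes. Stat3 (chromosome 11, 100885098 to 100939540, minus strand) stood at 2535, 3317 and 2993 normalized counts in Mock, against 3040, 5120 and 4476 in HIF-1α-KD libraries. Here too HIF-1α-KD replicate 1 fell among the Mock libraries while replicates 2 and 3 were above all of them. The mean was 2948 ± 393 in Mock and 4212 ± 1065 in HIF-1α-KD cells (SD, n = 3), a log2 fold change of 0.49 ± 0.21 (SE, 95% interval 0.01 to 0.96, limma adjusted p = 0.385). It was 0.71 without HIF-1α-KD replicate 1 and 0.33 without HIF-1α-KD replicate 2. The unadjusted p of Stat3 missed 0.05 without Mock replicate 1 or 3 or HIF-1α-KD replicate 2 or 3, with TMM scaling and in limma without trend. The end of Stat3 overlaps that of Stat5a on the opposite strand, and Jak1 meets Raver2 in the same way. The strand setting of the counting is not given in the sources used here, and Stat5a had a mean of 463 normalized counts.

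**Figure D2:**
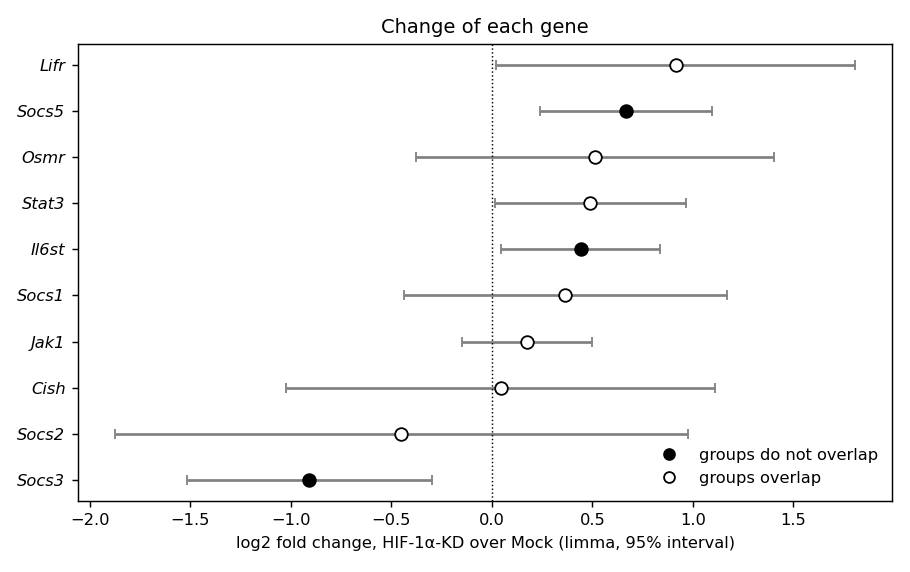
Log2 fold change of each gene, HIF-1α-KD over Mock, from limma with its 95% interval. Filled points are genes whose groups do not overlap, which are Socs3 at -0.91, Il6st at 0.44 and Socs5 at 0.67.

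Socs3 (ENSMUSG00000053113, chromosome 11, 117966079 to 117970047, minus strand), the feedback suppressor of gp130 signals, stood at 1605, 2152 and 1094 normalized counts in Mock, against 633.8, 983.2 and 914.8 in HIF-1α-KD libraries. All KD values were below all Mock values, with Mock replicate 3 the nearest to the KD group and Mock replicate 2 the farthest. The mean was 1617 ± 529 in Mock and 844 ± 185 in HIF-1α-KD cells (SD, n = 3). The log2 fold change was -0.91 ± 0.27 (SE, 95% interval -1.52 to -0.30, limma adjusted p = 0.268), and leaving out single libraries moved it between -1.16 and -0.68. Over the other tests and settings its adjusted p ranged from 0.0274, with DESeq2, to 0.555.

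The balance of the suppressor to the factor was described within each library, for a pair of genes whose changes were known to differ in sign, so no test is given. The log2 ratio of the Socs3 to the Stat3 normalized count came to -0.66, -0.62 and -1.45 in Mock libraries, against -2.26, -2.38 and -2.29 in HIF-1α-KD libraries. The KD libraries lay close together, with an SD of 0.06 against 0.47 in Mock, and all were below the Mock libraries. The difference was -1.40, which restates the log2 fold changes of both genes, and leaving out single libraries moved it between -1.67 and -1.25.

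The early response genes, a list of 14 genes such as Fos, Junb and Ier3 that cells transcribe within minutes of a stimulus, tissue dissociation included, moved with Socs3. Their summed normalized count came to 59182, 69250 and 49452 in Mock libraries, against 9739, 26331 and 31031 in HIF-1α-KD libraries. As for Socs3, the highest library was Mock replicate 2 and the lowest HIF-1α-KD replicate 1, and the groups did not overlap. All 14 had negative log2 fold changes, with a median of -1.47, and 11 were lower at an unadjusted p below 0.05 and 1.5-fold, against 3.46% of all genes tested. The gene Ier3 (log2 fold change -2.07) passed the adjusted threshold (limma adjusted p = 0.0242), though not without Mock replicate 1, 2 or 3 or HIF-1α-KD replicate 2 or 3, with its highest adjusted p of 0.109 without Mock replicate 1. Of its 16 alternatives, 8 passed. Next by p were Ier2 (log2 fold change -1.45), Dusp1 (-2.51) and Klf6 (-1.26). The part of this list in the Socs3 difference was not tested. By Pearson's r of log2 normalized count over the 6 libraries, the genes most like Socs3 were Gpr19 (0.984), Accs (0.981), Klf2 (0.980), Manba (0.980) and Zfp182 (0.978), and the most opposite were Tpp1 (-0.999), Desi1 (-0.994) and Plvap (-0.989). These are descriptions over 6 libraries that also carry the difference between the groups. Klf2, a flow- and cytokine-responsive transcription factor, was the one of these with the largest difference, from 797.7, 989.5 and 404.7 in Mock to 164.1, 287.8 and 222.9 in HIF-1α-KD libraries.

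**Figure D3:**
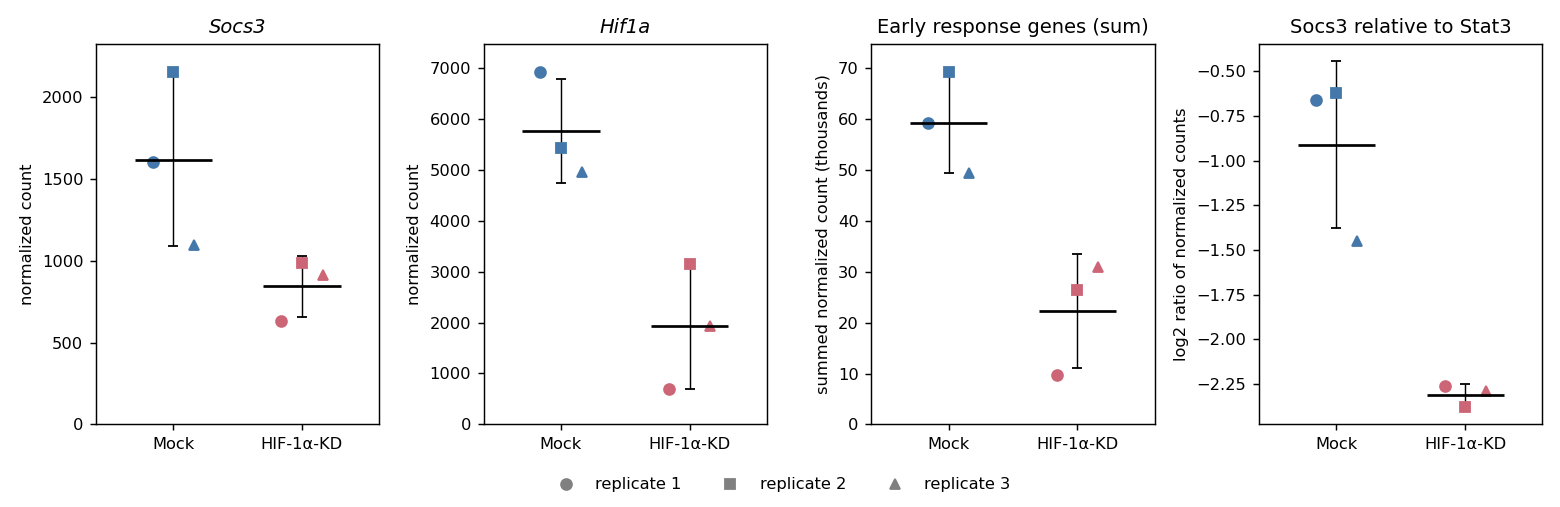
Socs3, Hif1a and the summed early response genes (normalized counts, axes from 0) and the log2 ratio of Socs3 to Stat3, in each of the 3 Mock (blue) and 3 HIF-1α-KD (red) libraries with mean and SD. In each panel the groups are apart, and the ratio of the HIF-1α-KD libraries lies between -2.38 and -2.26.

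Socs5 (chromosome 17, 87107679 to 87137839, plus strand), whose product restrains epidermal growth factor and interleukin-4 receptors, stood at 657.4, 766.5 and 745.3 normalized counts in Mock, against 1443, 1108 and 944.9 in HIF-1α-KD libraries. All KD libraries were above all Mock libraries, and HIF-1α-KD replicate 1, the library with the lowest Hif1a and the lowest Socs3, was the highest. The mean was 723 ± 57.9 in Mock and 1165 ± 254 in HIF-1α-KD cells (SD, n = 3), with a log2 fold change of 0.67 ± 0.19 (SE, 95% interval 0.24 to 1.10, limma adjusted p = 0.253). Leaving out single libraries moved it between 0.50, without HIF-1α-KD replicate 1, where it no longer reached 1.5-fold, and 0.81, and its adjusted p over the other settings ranged from 0.0679 to 0.529.

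The remaining suppressors were low and variable. Socs1 (chromosome 16, 10782240 to 10785536, minus strand), a direct inhibitor of JAK kinases that interferon induces, stood at 45.55, 91.87 and 93.01 normalized counts in Mock, against 112.6, 99.52 and 75.08 in HIF-1α-KD libraries. These groups overlapped, with a log2 fold change of 0.37 ± 0.35 (SE, 95% interval -0.44 to 1.17, limma adjusted p = 0.704), and it was 0.030 without Mock replicate 1. Socs2 (chromosome 10, 95385362 to 95417180, minus strand), a suppressor of growth hormone signals, stood at 158.8, 155 and 42.28 normalized counts in Mock, against 32.98, 125.9 and 97.03 in HIF-1α-KD libraries. A low library was present in each group, Mock replicate 3 and HIF-1α-KD replicate 1, and the log2 fold change of -0.45 ± 0.63 (SE, 95% interval -1.87 to 0.97, limma adjusted p = 0.803) became 0.12 without HIF-1α-KD replicate 1. Cish (chromosome 9, 107296026 to 107302784, plus strand), which encodes the STAT5-induced suppressor CIS, stood at 25.85, 30.62 and 15.7 normalized counts in Mock, against 15.28, 33.57 and 26.57 in HIF-1α-KD libraries. They rested on 13 to 32 reads per library, and a difference was not detectable at this depth (log2 fold change 0.04 ± 0.47, SE, 95% interval -1.02 to 1.11, limma adjusted p = 0.978).

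Within the HIF-1α-KD group, 6 of the 10 genes ranked replicate 1 lowest, then replicate 3, then replicate 2, and the other 4 (Socs1, Socs5, Il6st and Lifr) had other orders. Replicate 2 held the highest value of 7 of the 10 genes (Il6st, Osmr, Jak1, Stat3, Socs2, Socs3 and Cish) and the lowest of 0, whereas among all genes tested it was the highest of the group for 28.0% and the lowest for 25.0%. Replicate 1 held the lowest value of 7 of the 10 genes, against 38.8% of all genes. These are the KD libraries with the most and the least Hif1a transcript, 3142 and 697.3 normalized counts. In the Mock group, replicate 1 had the most Hif1a transcript. It held the highest value of 2 genes, against 37.3% of all genes, and the lowest of 4, against 38.3% of all genes. Only 3 libraries per group were ordered, the 10 genes were measured in the same libraries, and no test was made.

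Per length, Jak1 was the most abundant transcript and Lifr and Cish the least. In FPKM, fragments per length of the gene and per read of the library, Mock cells had 232 ± 21.1 for Jak1, 69.9 ± 11.6 for Stat3, 60.7 ± 7.43 for Il6st and 59.1 ± 21.4 for Socs3 (SD, n = 3). The ranges of Stat3, Il6st and Socs3 overlapped, and those of Jak1 above them and of Socs5 (6.59 ± 0.719) below them did not. Socs2 (3.36 ± 1.90), Socs1 (2.53 ± 0.929) and Osmr (1.86 ± 0.357) came next and overlapped in turn, and Cish (0.437 ± 0.150) and Lifr (0.269 ± 0.0832) closed the order. In HIF-1α-KD cells Stat3 (104 ± 28.2 FPKM) and Il6st (86.6 ± 19.2) still overlapped, whereas Socs3 (32.0 ± 7.64) lay below the ranges of both and above Socs5 (10.98 ± 2.12). By mean FPKM, Jak1 exceeded 96.3% of the genes tested in Mock cells, Socs3 82.9% in Mock and 70.0% in HIF-1α-KD cells, and Lifr 2.62% in Mock cells.

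**Figure D4:**
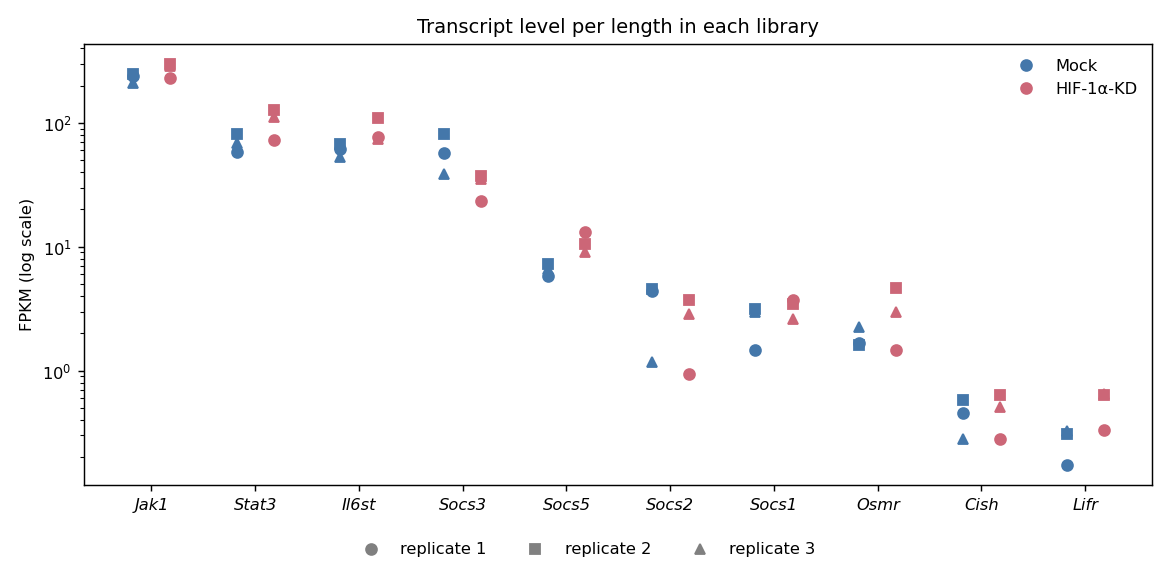
FPKM (log axis) of the 10 genes in each library, ordered by the Mock mean, with Mock in blue and HIF-1α-KD in red and symbols for the replicate number. Socs3 overlaps Stat3 and Il6st in Mock libraries, at 38.95 to 81.49 FPKM, and below them in HIF-1α-KD libraries, at 23.25 to 37.56 FPKM.

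The rest of the pathway was described with 10 lists of ligands, receptors, kinases, brakes and target genes, which held 77 tested genes besides the 10 above. None of the 77 passed an adjusted p of 0.05 in limma or in edgeR, and 4 did in DESeq2 (Icam1, Zfp36, Junb and Nlrc5), which is 5.19% against 2.36% of all genes tested. In limma 13 had an unadjusted p below 0.05, which is 16.9% against 12.7% of all genes tested, and 5 higher and 5 lower genes also reached 1.5-fold, which is 13.0% against 7.48%. Groups did not overlap in 10 of the 77 genes, which is 13.0% against 19.2% of all genes tested.

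Of 10 cytokine genes of the family, 6 were tested. The gene of leukemia inhibitory factor, Lif, had 408 ± 38.0 and 379 ± 55.9 normalized counts, and Cntf and Ctf1 had log2 fold changes of 0.41 and -0.14. Il6 itself was between 0 and 7.25 normalized counts in all libraries and was not tested, like Il11, which was between 5.63 and 16.3. The ligand-binding chains Il6ra (log2 fold change -0.35), Il11ra1 (0.33) and Il27ra (0.09) did not pass the test, although the groups of Il11ra1 did not overlap, and Cntfr and Il31ra had no read in any library.

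The other kinases of the family, Jak2, Tyk2 and Jak3, had log2 fold changes of 0.23, 0.09 and 0.10, and the adjusted p was at least 0.578. Of 6 other STAT genes, 4 had positive values and none passed the unadjusted test. Stat4 (log2 fold change 1.54) was at low counts, 13.0 ± 7.58 in Mock and 46.5 ± 30.8 in HIF-1α-KD cells (SD, n = 3). Stat2 had a log2 fold change of 0.21, and Stat6, which carries interleukin-4 signals, had -0.22 without overlap of the groups.

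None of the 9 other SOCS and SOCS box ligase genes, which link SOCS targets to ubiquitin, passed an unadjusted p of 0.05. Their median log2 fold change was -0.06, and Socs6 (-0.61), Cul5 (-0.23), Socs7 (0.17) and Rnf7 (-0.15) came first by p. Of 9 phosphatases and PIAS brakes, 2 phosphatase genes were higher at an unadjusted p below 0.05, against 7.04% of all genes tested. Ptpn11, which encodes SHP2, the phosphatase that shares its docking site on gp130 with SOCS3, had 2040 ± 259 normalized counts in Mock and 2721 ± 438 in HIF-1α-KD cells (SD, n = 3, log2 fold change 0.41, limma adjusted p = 0.381). Ptpn6, which encodes the phosphatase SHP1 of blood cells, had 81.2 ± 7.82 and 185 ± 86.8 (log2 fold change 1.04, limma adjusted p = 0.35). Its log2 fold change was 0.76 without HIF-1α-KD replicate 3, the library with the most leukocyte markers, where Ptpn6 missed the unadjusted threshold. Ptpn6 stood at 244.9 in that library and at 223.6 in HIF-1α-KD replicate 1, the library with the fewest leukocyte markers. It stood at 85.13 in HIF-1α-KD replicate 2 and between 74.89 and 89.96 in Mock libraries. The part of leukocytes in these values was not tested. Ptpn1 and Pias3 had log2 fold changes of 0.28 and -0.26. Among 14 tested genes of other JAK-coupled receptors, Il2rg (log2 fold change 0.88) and the interferon gamma receptor chain Ifngr2 (0.34) were higher at an unadjusted p below 0.05, and Ifngr1 (0.55) and Epor (-0.76) were not.

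Known STAT3 target genes had negative changes more often than positive ones. Of 20 listed, 17 were tested, 13 had negative and 4 positive log2 fold changes, the median was -0.38 against 0.02 for all genes tested, and Cebpd was not analysed here. Zfp36 (-1.71), which encodes an mRNA-destabilizing protein, Pim1 (-0.89), which encodes a survival kinase, and the AP-1 genes Junb (-1.30) and Fos (-2.32) were lower at an unadjusted p below 0.05 and 1.5-fold (background 3.46%), with limma adjusted p of 0.238 for Zfp36, 0.294 for Pim1 and 0.303 for Junb. In the opposite direction, Icam1, an adhesion molecule that NF-κB also induces, had 55.8 ± 14.5 normalized counts in Mock and 158 ± 80.1 in HIF-1α-KD cells (SD, n = 3, log2 fold change 1.40, limma adjusted p = 0.245). The list overlaps that of the early response genes in Junb, Fos, Myc and Zfp36. Those 4 had a median log2 fold change of -1.50, and the other 13 had a median of -0.24, with 9 negative values and Pim1 as the lower gene at the p and fold condition. Fos was chosen for mention after its values were seen.

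Of 6 tested STAT5 targets, Pim1 was lower and Id1 (log2 fold change 0.94) was higher at the p and fold condition, against 3.46% lower and 4.02% higher among all genes tested, and Bcl2l1 (-0.21) and Ccnd1 (0.25) did not pass. Nlrc5, the activator of MHC class I genes, had 433 ± 79.3 normalized counts in Mock and 793 ± 179 in HIF-1α-KD cells (SD, n = 3, log2 fold change 0.86, limma adjusted p = 0.238) and was higher at the same condition. Irf1 (0.32) and Cxcl9 (1.52) did not pass the unadjusted test. No difference between the lists was tested.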

How the data were processed

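RNA of sorted MC-38GFP tumor cells was measured in 6 libraries, grouped by the knockdown in their labels. The 10 genes and the lists were chosen with earlier results of these data known. Per the paper's methods, the authors used STAR for alignment, featureCounts for counting and DESeq2 for testing. The submitters' processing notes name GRCm38, STAR and edgeR, while the methods name a human assembly. The labels name the TruSeq RNA Sample Prep Kit, whereas the methods name the stranded mRNA version of it.

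The authors deposited, for 22880 genes, normalized counts, a signal in which they divided each count by a factor per library, and FPKM. The deposited columns of the authors' own comparison (a ratio, a p-value and a false discovery rate) were not used. Reads were recovered by undoing the factor, and 100% of values up to 300 reads were whole within 0.1 read.

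Genes were filtered with filterByExpr of edgeR 4.0.16 (minimum count 10), which left 12014. The test was limma 3.58.1 on log2(normalized count + 1) with a mean-variance trend, two-sided, with Benjamini-Hochberg adjustment, and calls used an adjusted p of 0.05 or an unadjusted p of 0.05 with 1.5-fold. The quasi-likelihood test of edgeR on the recovered reads, which called 47 of all genes, as limma did, and DESeq2 1.42.0, which called 283, were alternatives, as were other scalings, filters and pseudocounts (0.1 and 10), a replicate block and each library left out. Scripts were tested on simulated data. Named are the 10 genes, Hif1a, up to 4 genes of each list with the smallest unadjusted p (all genes of a list with 3 or fewer tested), and the 5 most and 3 least like Socs3. Positions come from GENCODE for GRCm38, promoters from RefSeq. Software was matplotlib 3.10.9, scipy 1.17.1, numpy 2.4.6, pandas 2.3.3, Python 3.11.15 and R 4.3.3. Protein sequences were not used here, and some genes the rule names are not reported here.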

Additional observations from a re-analysis of the deposited data

How the results depend on the processing

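Socs3 stayed the single lower gene of the 10 at an unadjusted p below 0.05 and 1.5-fold in every alternative run, whereas the number of higher genes depended on the setting. At an adjusted p below 0.05 there was 0 of the 10 genes in limma and 1 with DESeq2 (Socs3), and 0 of the pathway genes in limma and 4 with DESeq2. The 2 higher genes became 1 with edgeR, with DESeq2, with no filter on low counts and, as a setting chosen after seeing the data, without Mock replicate 3 and HIF-1α-KD replicate 3 together, the libraries with the most epithelial and leukocyte markers. Over single libraries left out, the higher genes numbered between 1 and 3 (without HIF-1α-KD replicate 1 they were Stat3, Osmr and Lifr), the higher pathway genes between 2 (without Mock replicate 1) and 8 (without HIF-1α-KD replicate 1), from 5, and the lower pathway genes between 2 (without Mock replicate 2) and 8 (without HIF-1α-KD replicate 3), from 5. Among the genes named by the rule, leaving out single libraries turned the sign of 6 log2 fold changes, which then ranged from -1.07 to 0.12 for Socs2 (reversed without HIF-1α-KD replicate 1), from -0.22 to 0.35 for Cish, from -0.40 to 0.47 for Il27ra, from -0.028 to 0.29 for Tyk2, from -0.19 to 0.31 for Jak3 and from -0.068 to 0.72 for Stat2. Without Mock replicate 3 and HIF-1α-KD replicate 3 together, the log2 fold change was -0.30 for Cish and 0.026 for Lif, both reversed. The cause was not tested. Same-numbered libraries of the groups did not deviate together (correlations of -0.14, -0.12 and 0.02), so the numbers were not taken as pairs. With the replicate block 0 of the 10 genes and 0 of all genes passed the adjusted threshold, against 47 without it, while 1324 of all genes had an unadjusted p below 0.05, and 5 of the 10 genes had an unadjusted p below 0.05, as without it. Read depth limits Cish and Lifr, at 13 to 73 reads per library.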
